A study of Homo sapiens with 12 samples.

Results

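Cells copy their DNA in S phase with a fixed set of proteins, and 39 genes that encode them or drive entry into S phase were followed here in breast cancer tissue grown alone or beside liver or heart tissue. The genes were taken as a list by their function: the helicase subunits MCM2 to MCM7, genes of origin recognition, licensing and helicase activation, E-type cyclins with E2F1, replicative polymerases, clamp and lagging-strand genes, nucleotide supply, and chromatin assembly with the fork checkpoint. All 39 were found among the 58735 genes of the deposited table, and all 39 passed the low-count filter that left 17468 genes for testing. The cancer cells were MDA-MB-231, a human breast cancer line of the triple-negative, mesenchymal-like kind, carrying green fluorescent protein, embedded in fibrin gel and kept under flow in a perfused plate (AngioPlate). Monoculture held this cancer tissue alone. In the hepatic co-culture it shared the device with HepG2 cells, a human liver cancer line, mixed with 2% lung fibroblasts, and in the cardiac co-culture with cardiomyocytes made from induced pluripotent stem cells mixed with 2% cardiac fibroblasts. RNA of the cancer tissue was taken on day 5, with 4 libraries in each of the 3 groups. All groups shared the single cancer line, the gel and the flow. The labels call the libraries biological replicates without naming separate cultures, so p-values reflect only how far these libraries differ, which may in part be technical.

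As background, replication is prepared in G1, when the origin recognition complex with CDC6 and CDT1 loads the MCM2 to MCM7 ring onto DNA. Cyclin E with its kinase then drives the cell into S phase, where CDC45 and the GINS complex turn the ring into an active helicase and polymerases with the PCNA clamp copy both strands. Many of these genes are known targets of the E2F transcription factors, which the retinoblastoma protein holds in check until G1 ends, and their mRNA is high in proliferating cells and low in resting ones.

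The promoters of these genes are shown first because E2F sites are a feature many of them are known to share. RefSeq promoters (GRCh38.p14, 250 bases before to 50 bases after the annotated start) were matched for 35 of the 39 genes; MCM4, MCM5, GINS4 and CCNE2 had no entry. Below are the 250 bases before the start of 7 genes, written 5′ to 3′ on the gene's strand. E2F1, MCM6, MCM3, UHRF1 and PCNA hold an E2F word, LIG1 holds one and was the gene with the smallest difference in both co-cultures, and RRM2 holds none and had one of the largest differences in the hepatic co-culture. These 7 were chosen with their values known. Capitals mark the E2F words TTTGGCGC, TTTCCCGC, TTTCGCGC and TTTGCCGC and the CCAAT box, each on either strand; a further E2F word of MCM3 crosses its start and is not marked.
E2F1, chr20:33686386-33686635, minus strand: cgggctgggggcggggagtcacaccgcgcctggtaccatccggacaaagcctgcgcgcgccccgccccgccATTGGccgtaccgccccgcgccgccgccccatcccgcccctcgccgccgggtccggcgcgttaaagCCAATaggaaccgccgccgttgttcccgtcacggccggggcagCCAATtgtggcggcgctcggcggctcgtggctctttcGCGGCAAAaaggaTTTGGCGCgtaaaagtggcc
MCM6, chr2:135876444-135876693, minus strand: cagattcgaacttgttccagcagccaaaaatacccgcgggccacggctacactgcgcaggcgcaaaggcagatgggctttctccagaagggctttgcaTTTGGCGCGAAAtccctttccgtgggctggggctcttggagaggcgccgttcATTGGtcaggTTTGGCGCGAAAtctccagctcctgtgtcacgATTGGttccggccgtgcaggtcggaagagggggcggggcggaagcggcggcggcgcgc
MCM3, chr6:52284743-52284992, minus strand: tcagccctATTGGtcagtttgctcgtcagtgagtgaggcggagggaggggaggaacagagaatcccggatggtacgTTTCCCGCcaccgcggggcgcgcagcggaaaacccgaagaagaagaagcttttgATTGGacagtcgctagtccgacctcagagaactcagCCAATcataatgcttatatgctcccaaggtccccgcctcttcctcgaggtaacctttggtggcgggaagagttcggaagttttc
UHRF1, chr19:4909251-4909500, plus strand: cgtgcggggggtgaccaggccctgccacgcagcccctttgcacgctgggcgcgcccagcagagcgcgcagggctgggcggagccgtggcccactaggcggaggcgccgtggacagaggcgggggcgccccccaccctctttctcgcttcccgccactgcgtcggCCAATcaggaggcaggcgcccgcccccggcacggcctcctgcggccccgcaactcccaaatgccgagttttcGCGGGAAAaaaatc
PCNA, chr20:5126623-5126872, minus strand: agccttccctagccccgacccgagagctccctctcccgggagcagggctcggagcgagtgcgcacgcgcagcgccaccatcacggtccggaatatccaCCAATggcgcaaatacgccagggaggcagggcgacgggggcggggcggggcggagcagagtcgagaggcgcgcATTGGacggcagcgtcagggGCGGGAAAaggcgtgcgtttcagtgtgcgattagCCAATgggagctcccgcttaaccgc
LIG1, chr19:48170345-48170594, minus strand: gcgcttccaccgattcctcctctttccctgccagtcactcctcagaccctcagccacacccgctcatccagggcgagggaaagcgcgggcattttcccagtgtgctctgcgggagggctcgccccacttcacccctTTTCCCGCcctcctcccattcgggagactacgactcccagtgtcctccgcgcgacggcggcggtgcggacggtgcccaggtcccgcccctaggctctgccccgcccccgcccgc
RRM2, chr2:10122489-10122738, plus strand: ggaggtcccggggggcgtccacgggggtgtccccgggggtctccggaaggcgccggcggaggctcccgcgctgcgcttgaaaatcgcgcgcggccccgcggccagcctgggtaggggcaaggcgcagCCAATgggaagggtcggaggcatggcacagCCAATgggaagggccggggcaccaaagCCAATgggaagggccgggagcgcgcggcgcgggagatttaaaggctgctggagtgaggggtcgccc

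An E2F word was found in 19 of the 35 promoters (54.3%), against 589 of 11380 promoters of tested genes (5.18%) and 3.33% of all 27305 promoters of the same length. The 51 other replication genes of a separate list held one in 17.5% of their 40 matched promoters, and 28 genes of G2 and mitosis (G2/M genes) in 13.6% of 22. Of the 26 E2F words in the 35 promoters, 18 began between 60 bases before and 20 bases after the start. In the promoter of MCM6, the word TTTGGCGC and a reverse-strand word overlap in the run TTTGGCGCGAAA, which occurs at 2 places; overlapping words were counted separately. The CCAAT box was found in 21 of the 35 promoters, in 77.3% of those of the G2/M genes and in 36.3% of those of tested genes. The G2/M genes differed in holding the letters TTTGAA, a form of the cell cycle homology region, in 68.2% of promoters, against 2.86% here and 9.96% of tested genes. A second form, TTTAAA, was found in 11 of 22 promoters of G2/M genes, 3 of the 35 here (8.57%) and 7.81% of tested genes. These are matches of letters, and no factor's binding was measured.

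Among the libraries, cardiac replicate 4 stood apart. On the first principal component of all tested genes, with 28.5% of the variance, it lay at -24.9, within the range of the monoculture libraries (-51.1 to -22.3), whereas cardiac replicates 1 to 3 lay between 6.79 and 16.3 and the hepatic libraries between 24.5 and 46.8. It also held 21 counts of MYH6 and 8 of MYL7, both cardiomyocyte genes with 0 counts in the other 11 libraries. Other cardiomyocyte genes did not follow: TNNT2, TNNI3 and NKX2-5 had 2 counts each there, beside up to 4, 7 and 5 in other groups. MYH7 had 0 there. Results of the cardiac co-culture are given with and without replicate 4 because of its place on the first component. Total counts were 35.0 to 42.0 M (M for 1e6) in monoculture, 26.2 to 42.4 M beside hepatic and 27.0 to 37.4 M beside cardiac tissue. Markers of the cancer line were all detected (10 of 10 tested, 4011 to 4508 summed counts per 1e6 counts). Of the defining hepatocyte markers, ALB had 0 to 14 counts and TTR 0 to 1, and of the cardiomyocyte markers MYH7 had 0 to 1 and TNNT2 0 to 4. HNF4A had 0 to 13 counts, AFP 0 to 14 and APOA1 0 to 4. Their means per 1e6 counts were 0.21, 0.25 and 0.07 in the hepatic co-culture, beside 0.04, 0.09 and 0.04 in monoculture. ALB went the other way, with 0.10 beside 0.16.

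In the hepatic co-culture, the replication genes were lower than in monoculture: 12 of 39 passed the test and none was higher. The called genes were MCM3, MCM4, ORC1, CDC6, GINS3, CCNE2, POLE2, RFC2, FEN1, RRM2, UHRF1 and CLSPN. Their share, 30.8%, stands beside 13.6% of all tested genes called lower and 28.0% called in either direction. The median log2 fold change of the 39 genes was -0.51, beside 0.02 over all tested genes, and every one of the 39 estimates was below 0, from -1.05 for CLSPN to -0.01 for LIG1. For 27 of the 39 genes every hepatic library lay below every monoculture library, which was so for 15.4% of tested genes. The test was the quasi-likelihood test of edgeR, adjusted by Benjamini-Hochberg over 17468 genes and a threshold of 0.05, in 1 fit over the 12 libraries. Its count was sensitive to the libraries in the fit. It was 32 without cardiac replicate 4 (15.6% of all genes lower) and 21 without cardiac replicate 2. It was 5, 3 and 4 without monoculture replicates 4, 3 and 1, and 2 and 1 without hepatic replicates 1 and 3. When only the 8 libraries of these 2 groups were fitted it was 31 (14.7% of all genes lower). Over all genes, 3660 (without monoculture replicate 3) to 5529 (without cardiac replicate 4) were called in either direction with a library left out. Fits with 5 or fewer of the 39 called thus held a smaller share of them than of all genes called in either direction. The share of all genes called lower is not given for those fits. With each of the 12 libraries left out in turn, RFC2 passed in 11 fits, GINS3, CCNE2 and POLE2 in 10, ORC1 and CDC6 in 8, FEN1 and RRM2 in 7, MCM3 and MCM4 in 6, and UHRF1 and CLSPN in 4. Without the low-count filter CDC6, CLSPN, FEN1, MCM3, MCM4, RRM2 and UHRF1 lost their calls.

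In the cardiac co-culture, replicates 1 to 3 held the replication genes at low levels. Replicate 4 held 37 of the 39 within or above the range of monoculture. The 2 below it were PRIM1 and RFC3, beside 23.5% of all tested genes that lay below every monoculture library in replicate 4. With all 4 libraries, 0 of 39 passed the edgeR test, beside 3.33% of all tested genes called lower and 8.26% in either direction. At an unadjusted edgeR p under 0.05, 19 were lower, beside 4489 of 17468 genes in either direction. DESeq2 called 6 lower, beside 5.99% of its genes. The median log2 fold change was -0.43, beside 0.01 over all tested genes, with every estimate below 0. Without replicate 4, 35 of 39 passed, beside 9.16% of all tested genes called lower, and the median was -0.70. Since that library is the cardiac one nearest to monoculture, leaving it out fixes the direction in which the count and the median move. The same holds for the cardiac fold changes, p-values and counts given below without it. All these values describe replicates 1 to 3 and are no separate support. The 4 that did not pass there were CCNE1, CCNE2, POLA1 and LIG1. Both co-cultures were compared with the same 4 monoculture libraries, so these comparisons are not independent.

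**Figure D1:**
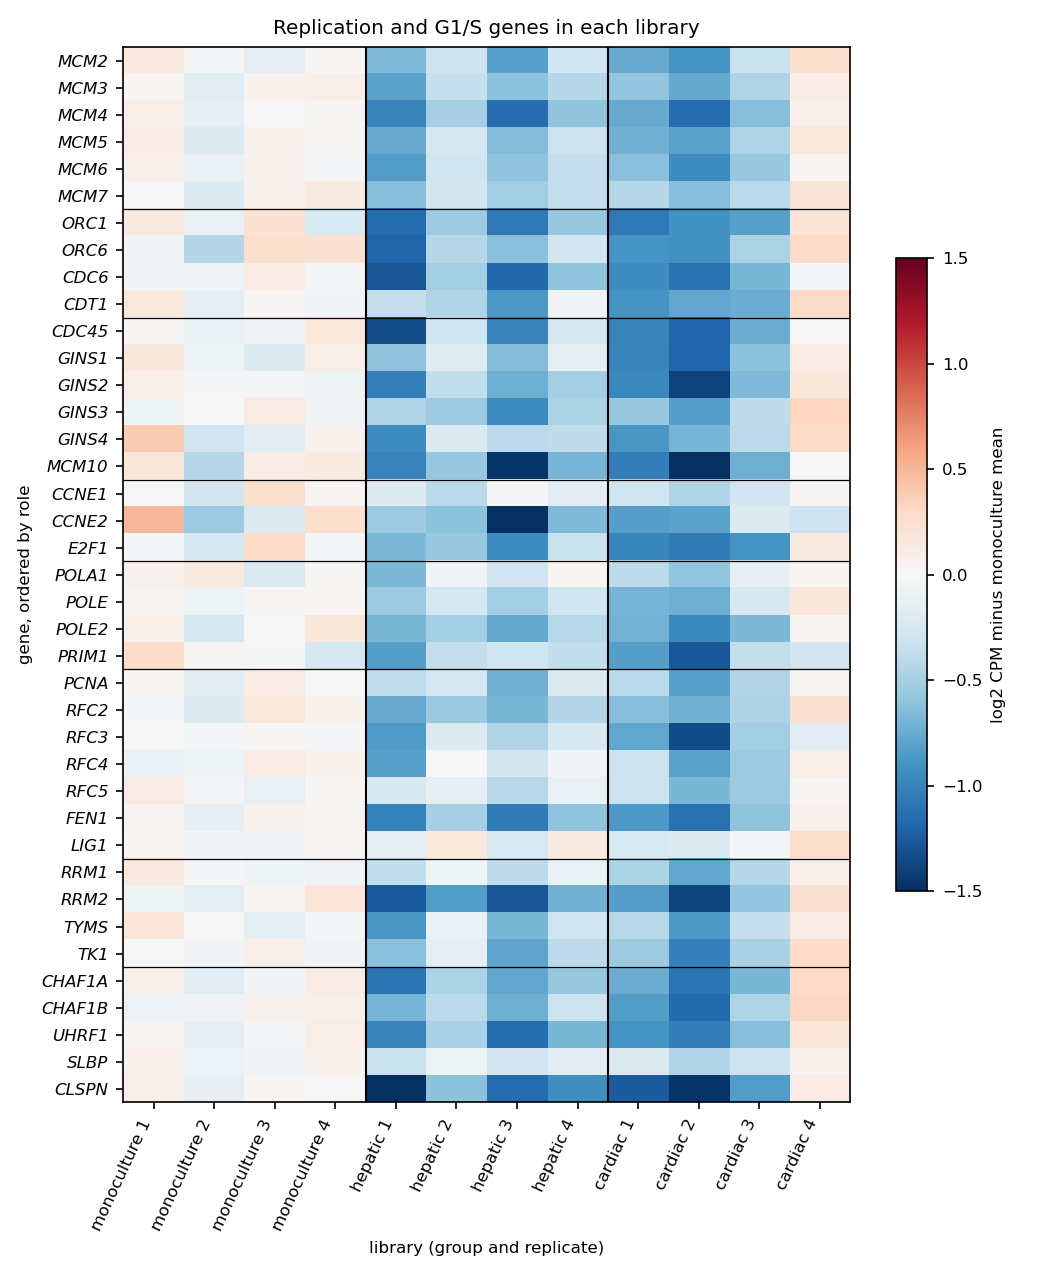
Each cell is the log2 level (CPM, counts per 1e6 counts) of 1 gene in 1 library minus the gene's mean over the 4 monoculture libraries. Rows are the 39 genes grouped by role and columns are the 12 libraries. Blue fills the hepatic columns and cardiac replicates 1 to 3, while cardiac replicate 4 is pale or red in nearly every row.

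The level of the whole group in each library shows the same split. Summed over the 39 genes, the monoculture libraries held 2291, 2033, 2255 and 2273 CPM in replicates 1 to 4. The hepatic libraries held 1330, 1775, 1370 and 1723 CPM and the cardiac ones 1422, 1203, 1572 and 2410 CPM. All hepatic libraries and cardiac replicates 1 to 3 lay below the lowest monoculture library, and cardiac replicate 4 lay above the highest. The group means were 2213 ± 121 CPM in monoculture, 1549.6 ± 232 in the hepatic co-culture and 1652 ± 528 in the cardiac one (SD, n = 4), and 1399 ± 185 over cardiac replicates 1 to 3 (SD, n = 3). CPM here are counts scaled by edgeR's TMM factors per 1e6 counts. In bulk RNA, fewer cells in S phase and less mRNA of these genes per cell cannot be told apart.

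**Figure D2:**
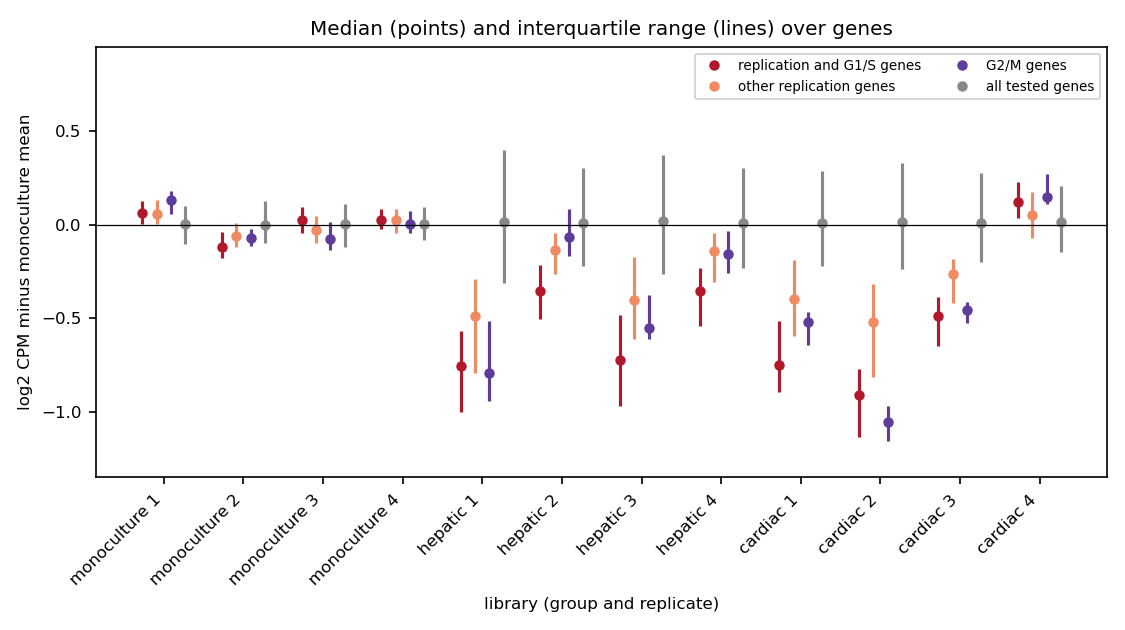
Points are medians over genes of the log2 CPM minus the monoculture mean, and lines span the interquartile range, for the 39 replication genes, 51 other replication genes, 28 G2/M genes and all 17468 tested genes in each of the 12 libraries. The replication genes sit at -0.75, -0.36, -0.72 and -0.36 in the hepatic libraries and at -0.75, -0.91, -0.49 and 0.12 in the cardiac ones, while the median of all tested genes stays near 0.

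The helicase core showed the pattern in all 6 of its subunits. MCM2 to MCM7 form the ring that unwinds DNA ahead of the fork. MCM3 (ENSG00000112118, chr6:52264009-52284881, GRCh38) stood at 250.1, 219, 255 and 262 CPM in monoculture replicates 1 to 4, at 141, 194, 159.9 and 182 in the hepatic and at 164, 144, 179 and 266 in the cardiac co-culture. Each hepatic value lay below each monoculture value, and the last cardiac library was the highest of all 12. The log2 fold change of MCM3 was -0.54 ± 0.17 (SE) in the hepatic co-culture (edgeR adjusted p = 0.0335). MCM4 stood at 131, 113, 122 and 124 CPM in monoculture, at 61.2, 86.7, 55.6 and 80.8 in the hepatic and at 72.5, 55.3, 78.6 and 129 in the cardiac co-culture. Its fold change in the hepatic co-culture was -0.79 ± 0.24 on the log2 scale (edgeR adjusted p = 0.0348). MCM7 stood at 170.3, 148, 179 and 186 CPM in monoculture, at 109, 141, 119 and 133 in the hepatic and at 127, 109, 128 and 194 in the cardiac co-culture. It did not pass the test in the hepatic co-culture (log2 fold change -0.45 ± 0.16, edgeR adjusted p = 0.0527), although its hepatic and monoculture values did not overlap. Over the 6 subunits, 2 passed in the hepatic co-culture and 0 in the cardiac one, beside 13.6% and 3.33% of all tested genes called lower. Without cardiac replicate 4 all 6 passed in both, beside 15.6% and 9.16%. The cardiac count there describes replicates 1 to 3.

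Origin licensing genes held the largest median difference in the hepatic co-culture together with the chromatin and checkpoint genes, -0.72 on the log2 scale for each. CDC6 (ENSG00000094804, chr17:40287633-40304657), the loader of the MCM ring, stood at 50.1, 49.9, 55.4 and 50.3 CPM in monoculture, at 21.0, 35.9, 22.8 and 33.7 in the hepatic and at 26.8, 23.6, 32.0 and 50.7 in the cardiac co-culture. Hepatic replicates 1 and 3 were the lowest of its 12 libraries, and no hepatic value reached monoculture. The fold change was -0.86 ± 0.24 on the log2 scale (edgeR adjusted p = 0.0245). ORC1, the largest subunit of the origin recognition complex, stood at 18.6, 15.7, 19.7 and 14.5 CPM in monoculture, at 7.59, 11.6, 8.08 and 11.4 in the hepatic and at 8.06, 9.03, 9.62 and 19.5 in the cardiac co-culture. Its fold change in the hepatic co-culture was -0.82 ± 0.26 on the log2 scale (edgeR adjusted p = 0.0316). The hepatic values of ORC6, another subunit of that complex, and CDT1, the partner of CDC6 in loading, overlapped monoculture, with log2 fold changes of -0.62 ± 0.29 and -0.41 ± 0.25 that did not pass. In the cardiac co-culture with all libraries 0 of the 4 passed, beside 3.33% of all tested genes called lower. Without cardiac replicate 4, all 4 genes passed in both co-cultures, beside 15.6% (hepatic) and 9.16% (cardiac). The cardiac count there describes replicates 1 to 3.

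Helicase activation was represented by CDC45 and GINS1 to GINS4, which complete the moving helicase, and by MCM10, which helps to start it. GINS3 passed in the hepatic co-culture. It stood at 12.0, 12.7, 13.8 and 12.2 CPM in monoculture, at 9.21, 8.65, 6.54 and 9.11 in the hepatic and at 8.54, 7.10, 9.71 and 15.8 in the cardiac co-culture, a hepatic log2 fold change of -0.60 ± 0.19 (edgeR adjusted p = 0.0267). The estimate of MCM10 was larger, -0.92 ± 0.31, with no overlap between hepatic and monoculture libraries, but it did not pass (edgeR adjusted p = 0.0516). CDC45 had -0.65 ± 0.29, GINS2 -0.64 ± 0.26, GINS4 -0.48 ± 0.23 and GINS1 -0.38 ± 0.25, none of which passed. In the cardiac co-culture with all libraries 0 of the 6 passed, beside 3.33% of all tested genes called lower. Without cardiac replicate 4 all 6 genes passed in both co-cultures, beside 15.6% (hepatic) and 9.16% (cardiac). In the cardiac one their median of -0.95 was then the largest of any role. These cardiac values describe replicates 1 to 3.

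Among the genes that drive the G1/S step, the E-type cyclins had estimates of different size, a contrast that was not tested. E2F1, the transcription factor, stood at 67.1, 57.9, 83.6 and 67.5 CPM in monoculture, at 42.8, 46.1, 35.8 and 54.5 in the hepatic and at 34.7, 32.8, 37.0 and 75.2 in the cardiac co-culture. Its hepatic and monoculture values did not overlap, and its log2 fold changes were -0.62 ± 0.27 (edgeR adjusted p = 0.112) and -0.62 ± 0.27 (edgeR adjusted p = 0.181). Without cardiac replicate 4 the cardiac value of E2F1 was -0.99 ± 0.13 (edgeR adjusted p = 2.88e-04). Replicate 4 was the highest cardiac library of E2F1, so leaving it out fixes the direction of this change. The value describes replicates 1 to 3. CCNE2, cyclin E2, stood at 10.05, 4.88, 6.19 and 8.47 CPM in monoculture, at 4.87, 4.63, 2.47 and 4.48 in the hepatic and at 4.00, 4.04, 6.13 and 5.74 in the cardiac co-culture. It passed in the hepatic co-culture (log2 fold change -0.84 ± 0.24, edgeR adjusted p = 0.0149), yet its highest hepatic value (4.87) almost met its lowest monoculture value (4.88). Exons of INTS8 on the other strand cover 37.0% of the exon length of CCNE2, with 1756 mean counts for INTS8 and 190.4 for CCNE2; the strand setting of the counting is not known, so this call is uncertain. CCNE1, cyclin E1, did not pass in any of these fits, with log2 fold changes of -0.20 ± 0.13 in the hepatic co-culture and -0.26 ± 0.13 in the cardiac one.

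**Figure D3:**
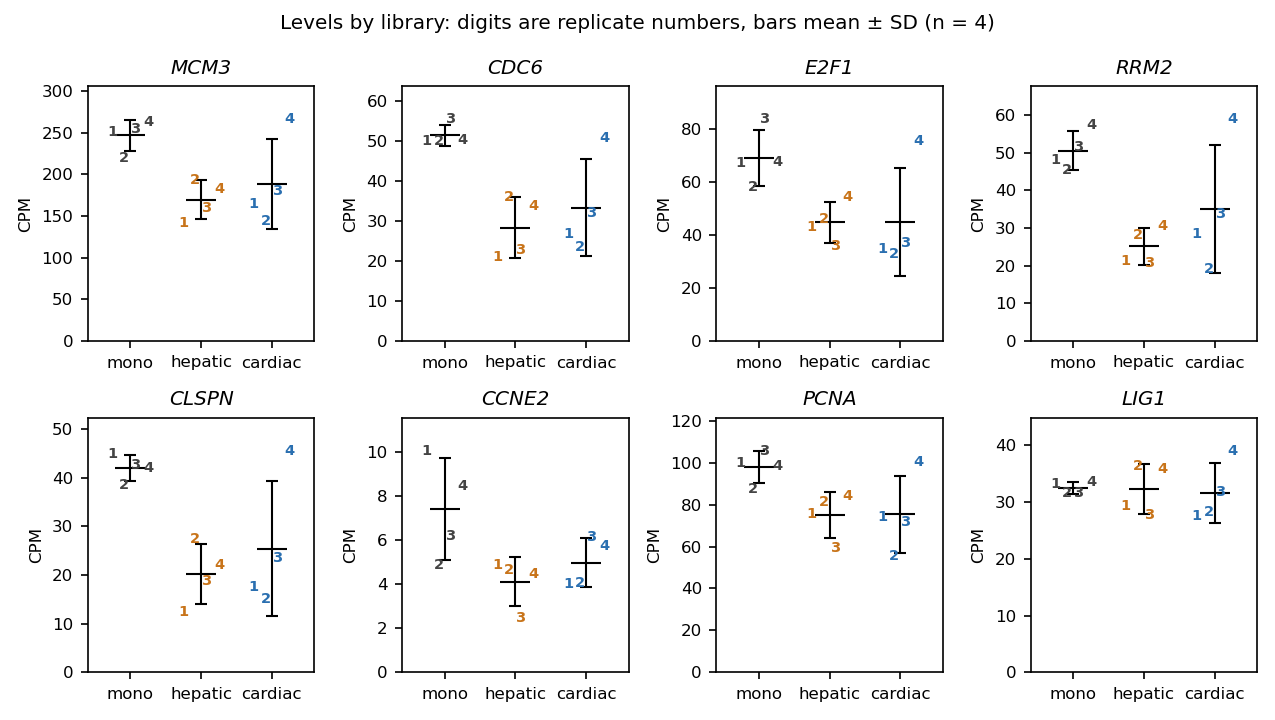
Levels of 8 genes in CPM on linear axes from 0; each digit is a library's replicate number, and bars give the mean ± SD of 4 libraries. Replicate 4 of the cardiac co-culture sits with monoculture for MCM3, CDC6, E2F1, RRM2, CLSPN and PCNA, and LIG1 is flat across the groups.

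Polymerase and primase genes had a median log2 fold change of -0.43 in each co-culture, beside -0.385 and -0.358 for the clamp and lagging-strand genes. POLE2, an accessory subunit of the leading-strand polymerase epsilon, stood at 21.9, 17.1, 20.6 and 23.0 CPM in monoculture, at 12.8, 14.4, 12.0 and 15.3 in the hepatic and at 12.5, 10.4, 12.8 and 21.0 in the cardiac co-culture. It passed in the hepatic co-culture (log2 fold change -0.60 ± 0.17, edgeR adjusted p = 0.0157) and not in the cardiac one (-0.53 ± 0.17, edgeR adjusted p = 0.0615). POLE, the catalytic subunit of the same enzyme, stood at 101, 93.1, 99.8 and 100.2 CPM in monoculture, at 67.7, 82.0, 69.4 and 80.3 in the hepatic and at 60.5, 59.4, 83.1 and 111 in the cardiac co-culture, with a hepatic log2 fold change of -0.40 ± 0.17 (edgeR adjusted p = 0.105). Its hepatic and monoculture values did not overlap. POLA1, the catalytic subunit of the priming polymerase alpha, stood at 66.3, 69.5, 54.8 and 64.4 CPM in monoculture, at 39.9, 61.8, 52.2 and 64.7 in the hepatic and at 48.2, 42.0, 58.4 and 65.5 in the cardiac co-culture; its values overlapped in both and neither difference passed. PRIM1, the primase subunit that makes the RNA primer, was 1 of only 2 genes of the 39 whose 4 cardiac libraries all lay below monoculture, at 3.77, 2.76, 5.22 and 5.53 CPM against 5.61 to 8.14 CPM. The other was RFC3, a clamp loader subunit, at 19.3, 13.0, 23.2 and 29.4 CPM against 32.6 to 33.5 CPM. Such separation was found for 7.47% of tested genes, more than the 2 of 39 here. The cardiac log2 fold changes were -0.64 ± 0.20 for PRIM1 (edgeR adjusted p = 0.0561) and -0.63 ± 0.20 for RFC3 (edgeR adjusted p = 0.0689).

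On the clamp and the lagging strand, FEN1 and RFC2 passed in the hepatic co-culture, and LIG1 had estimates near 0. FEN1 (ENSG00000168496, chr11:61792637-61797244), the nuclease that trims Okazaki fragment flaps, stood at 97.4, 87.2, 98.0 and 97.4 CPM in monoculture, at 47.0, 66.9, 45.8 and 62.7 in the hepatic and at 52.1, 43.8, 62.2 and 99.5 in the cardiac co-culture. Its hepatic log2 fold change was -0.77 ± 0.23 (edgeR adjusted p = 0.0338). RFC2, a clamp loader subunit, had the smallest adjusted p of the 39 genes in the hepatic co-culture. It stood at 28.04, 24.9, 31.6 and 29.5 CPM in monoculture, at 16.8, 19.3, 17.7 and 20.9 in the hepatic and at 18.3, 17.3, 20.7 and 33.4 in the cardiac co-culture, a hepatic log2 fold change of -0.61 ± 0.17 (edgeR adjusted p = 0.0141). PCNA, the sliding clamp itself, stood at 100.0, 87.5, 106 and 98.4 CPM in monoculture, at 75.7, 81.1, 59.2 and 83.9 in the hepatic and at 74.0, 55.4, 71.8 and 100.1 in the cardiac co-culture. Its hepatic and monoculture groups did not overlap, and the log2 fold change of -0.39 ± 0.16 did not pass (edgeR adjusted p = 0.0857). LIG1, the ligase that seals Okazaki fragments, had group means of 32.4, 32.2 and 31.6 CPM in monoculture, hepatic and cardiac co-culture, with log2 fold changes of -0.01 ± 0.11 and -0.04 ± 0.11. Its hepatic sign turned under upper-quartile scaling, so it has no direction. The remaining clamp loader subunits RFC4 and RFC5 had hepatic values of -0.25 ± 0.20 and -0.22 ± 0.12 and did not pass.

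Nucleotide supply was led by RRM2 (ENSG00000171848, chr2:10120698-10131419), the regulated small subunit of ribonucleotide reductase, which makes deoxynucleotides. It stood at 48.0, 45.3, 51.5 and 57.2 CPM in monoculture, at 21.2, 28.2, 20.7 and 30.5 in the hepatic and at 28.4, 19.2, 33.7 and 58.9 in the cardiac co-culture. The hepatic log2 fold change was -1.01 ± 0.30 (edgeR adjusted p = 0.0301), a level 0.50 times that of monoculture. RRM1, its large partner subunit, stood at 136, 121, 117 and 119 CPM in monoculture, at 94.9, 118, 94.2 and 115 in the hepatic and at 88.1, 71.5, 91.1 and 130.3 in the cardiac co-culture. Its hepatic libraries overlapped monoculture through replicate 2, with a log2 fold change of -0.22 ± 0.15 (edgeR adjusted p = 0.299); whether the subunits differ in response was not tested. TK1, the thymidine kinase of the salvage route, stood at 83.7, 81.2, 88.1 and 81.0 CPM in monoculture, at 54.0, 75.1, 48.4 and 63.4 in the hepatic and at 57.0, 41.1, 59.4 and 102 in the cardiac co-culture. Its groups of hepatic and monoculture libraries did not overlap, but the log2 fold change of -0.47 ± 0.24 did not pass (edgeR adjusted p = 0.187). TYMS, thymidylate synthase, had -0.46 ± 0.19 and did not pass; ENOSF1 on the other strand covers 39.1% of its exon length.

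The largest estimate in the hepatic co-culture, and in the cardiac one without replicate 4, was that of CLSPN (ENSG00000092853, chr1:35720218-35769967), claspin, the fork protein that relays the replication checkpoint to CHEK1. It stood at 44.9, 38.4, 42.7 and 41.9 CPM in monoculture, at 12.5, 27.4, 18.8 and 22.0 in the hepatic and at 17.6, 15.04, 23.5 and 45.5 in the cardiac co-culture. Its log2 fold change was -1.05 ± 0.35 in the hepatic co-culture (edgeR adjusted p = 0.0466, or 0.00233 to 0.110 with a library left out). In the cardiac one without replicate 4 it was -1.16 ± 0.23 (edgeR adjusted p = 0.00517). That value describes replicates 1 to 3, since replicate 4 was the highest cardiac library of CLSPN. UHRF1 (ENSG00000276043, chr19:4903080-4962154), which brings the maintenance DNA methyltransferase to newly copied DNA, stood at 106, 94.0, 102 and 110.0 CPM in monoculture, at 51.2, 73.5, 46.2 and 63.7 in the hepatic and at 55.2, 49.9, 66.2 and 116 in the cardiac co-culture. Its hepatic log2 fold change was -0.81 ± 0.26 (edgeR adjusted p = 0.0411, or 5.02e-04 to 0.107 with a library left out). The calls of CLSPN and UHRF1 were each lost without any 1 of the monoculture libraries, hepatic replicates 1, 3 or 4, or cardiac replicate 3. The chromatin assembly subunits CHAF1A and CHAF1B, which place histones behind the fork, had hepatic values of -0.72 ± 0.27 and -0.53 ± 0.24 with no overlap between groups, and did not pass. SLBP, which binds the stem-loop of histone mRNA, stood at 79.2, 70.7, 72.9 and 78.1 CPM in monoculture, at 59.6, 71.3, 61.4 and 67.2 in the hepatic and at 64.8, 55.0, 60.6 and 77.6 in the cardiac co-culture. Its difference was among the smallest, -0.21 ± 0.09 on the log2 scale in the hepatic co-culture (edgeR adjusted p = 0.0905), and hepatic replicate 2 overlapped monoculture.

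**Figure D4:**
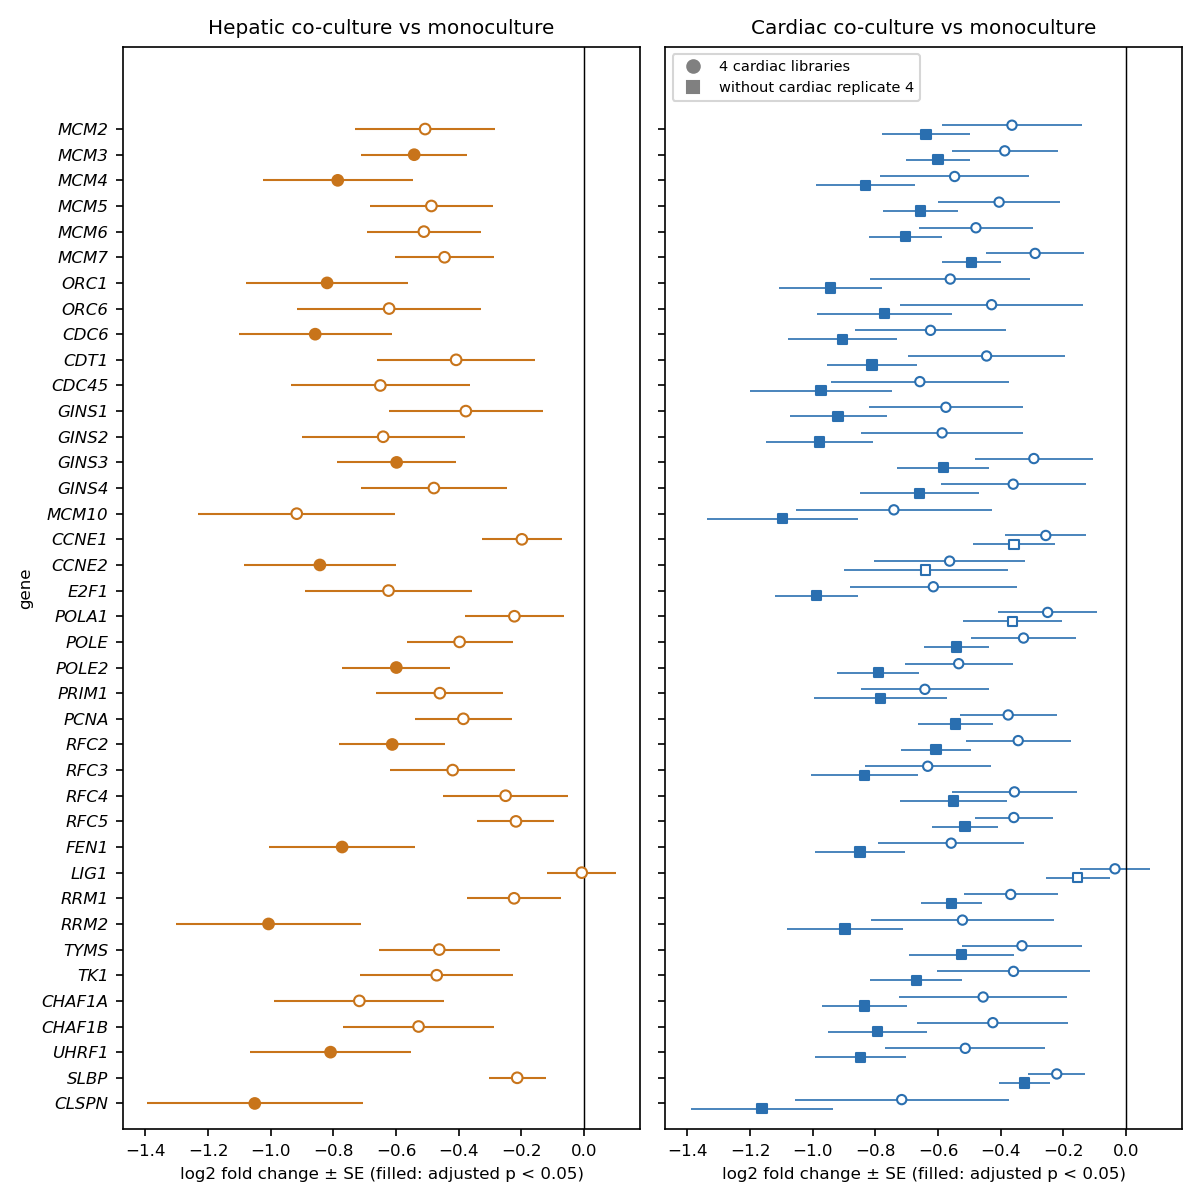
Log2 fold changes ± SE of the 39 genes against monoculture for the hepatic (left) and cardiac (right) co-culture; filled symbols passed the edgeR test at an adjusted p of 0.05. On the left 12 circles are filled; on the right none of the circles (4 cardiac libraries) and 35 of the squares (without cardiac replicate 4) are.

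No difference between the cardiac and hepatic co-cultures passed the test for these genes. In the direct comparison 0 of 39 passed the edgeR test, beside 6.18% of all tested genes. DESeq2 also called 0, beside 9.5% of its genes. At an unadjusted edgeR p under 0.05 there were 0 of the 39, beside 3585 of 17468 genes in either direction. The 3 genes with the smallest p were GINS3 (0.30 ± 0.19 log2, cardiac above hepatic), RRM2 (0.49 ± 0.30) and RFC2 (0.27 ± 0.17), with edgeR adjusted p of 0.406 to 0.410. The median was 0.10 with all libraries and -0.14 without cardiac replicate 4, so its sign turned with that library. In the latter fit 0 of the 39 genes passed, beside 4.79% of all tested genes. There 6 were lower at an unadjusted edgeR p under 0.05, beside 3277 of 17726 genes in either direction. No gene had all cardiac libraries above or all below the hepatic ones, beside 6.0% and 5.92% of tested genes. The SE of these differences ran from 0.09 to 0.35 on the log2 scale, so a p that missed the threshold does not show that the co-cultures were alike.

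Within groups, most of the replication genes were high or low in the same libraries. Their median SD of log2 CPM was 0.11 in monoculture (0.15 over all tested genes), 0.28 in the hepatic co-culture (0.20) and 0.49 in the cardiac one (0.19), and 0.23 over cardiac replicates 1 to 3 (0.15). RFC3 was the steadiest gene in monoculture (SD 0.018) and CCNE2 the most variable (SD 0.46); in the hepatic group these were SLBP (0.12) and CDC45 (0.53), and in the cardiac group CCNE1 (0.20) and CLSPN (0.70). Cardiac replicate 4 was the highest of its group for 38 of 39 genes, beside 31.9% of all tested genes, and lay above every monoculture library for 18 of the 39, beside 25.4%. Cardiac replicate 2 was the lowest of its group for 34 genes, beside 24.9% of all tested genes. Of the hepatic libraries, replicates 1 and 3 were lowest for 20 and 18 genes, beside 31.6% and 20.9%. In each of these 38 of the 39 genes lay below every monoculture library, beside 34.1% and 33.1% of all tested genes. In hepatic replicates 2 and 4 this was so for 30 and 31 genes, beside 30.8% and 31.4%. Cardiac replicates 1 to 3 lay below every monoculture library for 36 of 39 genes (all but CCNE2, POLA1 and LIG1), beside 16.2% of tested genes. Of those 36, replicate 4 lay at or above the lowest monoculture library for 34 (94.4%), beside 1525 of 2830 tested genes with that pattern (53.9%).

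Depth and marker levels of the libraries are given beside this spread. In the cardiac group, total counts were 27.8, 27.0, 32.7 and 37.4 M in replicates 1 to 4, in the same order as the median level of the replication genes (-0.75, -0.91, -0.49 and 0.12). In the hepatic group they were 30.0, 42.4, 29.6 and 26.2 M beside medians of -0.75, -0.36, -0.72 and -0.36, so that its shallowest library was not its lowest. The summed cardiomyocyte list (23 genes, 3 of them tested) was 20.9 CPM in cardiac replicate 4, within the 19.3 to 21.8 CPM of replicates 1 to 3 and close to monoculture (15.7 to 19.8) and hepatic libraries (20.3 to 22.4). The fibroblast list (18 genes, 12 tested, mostly VIM, which the cancer line also expresses) was 1156 CPM in cardiac replicate 4 and 1301 to 1552 in replicates 1 to 3. It was 1088 to 1285 in monoculture and 1267 to 1717 in the hepatic co-culture. Of its genes, THY1 was at 0 in all 12 libraries. COL1A2 had mean CPM of 1.56, 4.55 and 1.80 in monoculture, hepatic and cardiac co-culture, and COL3A1 0.09, 0.63 and 0.35. DCN and PDGFRB went the other way beside hepatic tissue, with 2.48, 0.28 and 2.02 for DCN and 2.94, 2.22 and 1.82 for PDGFRB. The hepatocyte list (21 genes, 2 tested) ranged from 43.3 to 75.5 CPM in monoculture, 37.4 to 64.4 in the hepatic co-culture and 73.9 to 101 in the cardiac one. The part of depth and of the fibroblast list in the result was not tested.

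Levels compared between genes are given per length, as CPM per kb of exon. In monoculture they ran from 67.6 ± 5.16 for MCM3 and 66.5 ± 5.16 for PCNA (SD, n = 4), which did not differ beyond their spread, through TK1 at 44.9 ± 1.77, MCM7 at 38.95 ± 3.72, FEN1 at 38.3 ± 2.11 and SLBP at 37.1 ± 2.02, of which the last 3 did not differ beyond their spread. The lowest were GINS3 at 2.48 ± 0.16, GINS4 at 2.05 ± 0.43 and CCNE2 at 1.68 ± 0.52. In the hepatic co-culture the order of the first pair was reversed within its spread, with PCNA at 50.97 ± 7.52 and MCM3 at 46.4 ± 6.37 CPM per kb.

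Fold changes of genes with and without the promoter words are given side by side. The 19 genes with an E2F word had a median hepatic log2 fold change of -0.51 with 6 called lower, and the 16 without had -0.57 with 4 called. In the cardiac co-culture their medians were -0.45 and -0.43, and without replicate 4 they were -0.70 and -0.78. For the CCAAT box the hepatic medians were -0.62 with 6 of 21 called and -0.47 with 4 of 14 called. Its cardiac medians were -0.51 with the box and -0.36 without it, or -0.84 and -0.62 without replicate 4. LIG1 and UHRF1, shown above with 1 E2F word each, had log2 fold changes of -0.01 and -0.81, and RRM2 without one had -1.01. These medians are descriptions without a test.

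Other genes of the replication machinery gave smaller medians. Of 51 further replication genes, 15 were lower and 1 higher in the hepatic co-culture (median -0.29), beside 13.6% of all tested genes lower. In the cardiac one 9 were lower and 1 higher (median -0.25), beside 3.33% lower. Without cardiac replicate 4 the cardiac counts were 32 lower and 1 higher, beside 9.16% lower. CHEK1, the checkpoint kinase downstream of claspin, fell in both, from 53.0 ± 2.98 CPM in monoculture to 36.0 ± 4.10 in the hepatic co-culture and 38.5 ± 7.53 in the cardiac one (log2 fold changes -0.56 ± 0.11 and -0.46 ± 0.11, edgeR adjusted p = 0.00139 and 0.0209). Its cardiac replicate 4, at 49.6 CPM, lay within the range of monoculture (48.8 to 55.5 CPM). SAMHD1, which breaks down deoxynucleotides, fell in the hepatic co-culture from 108 ± 11.8 to 49.5 ± 7.12 CPM (-1.13 ± 0.23, edgeR adjusted p = 0.00498). POLE3, ORC5 and NME1 also fell there, by 0.42, 0.63 and 0.51 on the log2 scale. In the cardiac co-culture NME1, CDC7, DNA2 and TOPBP1 fell by 0.49, 0.49, 0.52 and 0.32. Of these, DNA2 overlapped monoculture through cardiac replicate 4 (16.9 CPM, beside 16.5 to 21.4). POLD4, the small subunit of polymerase delta, rose in both, from 8.12 ± 0.66 CPM to 15.2 ± 0.83 and 11.8 ± 1.22 (0.91 ± 0.12 and 0.54 ± 0.12 log2, edgeR adjusted p = 2.17e-05 and 0.0125).

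Genes of the later cell cycle were counted in the same way. Of 28 G2/M genes, 0 passed the edgeR test in either co-culture, beside 13.6% and 3.33% of all tested genes called lower. In each, 3 were lower at an unadjusted edgeR p under 0.05, beside 6795 (hepatic) and 4489 (cardiac) of 17468 genes in either direction. DESeq2 called 1 of the 28 lower in each. The medians of the 28 genes were -0.37 in the hepatic co-culture and -0.41 in the cardiac one. Without cardiac replicate 4, 7 and 20 of them were lower, beside 15.6% and 9.16% of all tested genes. Their median SD within the groups was 0.13, 0.33 and 0.51, and their median in cardiac replicate 4 was 0.15 above the monoculture mean on the log2 scale.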

How the data were processed

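Poly(A) RNA-seq of the cancer tissue was analysed in 12 libraries, 4 per group. The authors deposited raw counts of reads per Ensembl gene, not normalized. The submitters' processing notes name the build GRCh38 and, without order or settings, featureCounts 2.0.6, HISAT2 2.2.1 and DESeq2 1.42.0. Not given in the sources used here are the annotation release, the strand setting and the treatment of reads matching several places. Per the labels' protocols both a stranded and an unstranded library kit are described. Symbols, positions and exon lengths came from GENCODE 29, which held all 58735 identifiers. From the counts, edgeR 4.0.16 (R 4.3.3) with TMM scaling and filterByExpr gave a robust quasi-likelihood test in 1 fit over the 12 libraries, two-sided, with Benjamini-Hochberg adjustment over 17468 genes (99.9% of counts) and a threshold of 0.05. The SE is the log2 fold change over the root of the F statistic. Log2 CPM used a prior count of 2. Expression varied by 14.9% between libraries of a group (edgeR's common coefficient). A check on simulated data with known changes used the means and spread of the main fit. It recovered 43.3% of 1.5-fold changes in the hepatic, 62.7% in the cardiac and 50.7% in the direct comparison. Of its calls, 4.38%, 1.38% and 6.67% were false. Total counts were 26.2 to 42.4 M per library.

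Every one of the 39 genes could be named; values in every library are given for 20 genes, those past the threshold and then the highest of each role. From the other lists, the up to 5 smallest adjusted p per direction are named, and between co-cultures the 3 smallest p. Genes and lists were chosen with earlier results of these data known. Alternatives were each library left out, DESeq2, scaling by its size factors or by upper quartiles, no filter, fits of 2 groups and a replicate block. Promoter sequences are from RefSeq (GRCh38.p14).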

Additional observations from a re-analysis of the deposited data

Results flagged for a closer look

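Of 117 gene and group pairs screened, 9 held a library whose gap to its nearest neighbour, as a share of the group's range, passed Dixon's 95% critical value for 4 samples. Chance flags about 1 in 20 groups, and genes that vary together are flagged together. Cardiac replicate 4 was the highest of its group for ORC1 (share 0.864), CDT1 (0.917) and E2F1 (0.902). Monoculture replicate 2 was the lowest of its group for MCM10 (0.861), POLE (0.832) and FEN1 (0.942). Monoculture replicate 3 was the highest for CDC6 (0.93), hepatic replicate 3 the lowest for CCNE2 (0.836) and hepatic replicate 1 the lowest for PRIM1 (0.838).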

How the results depend on the processing

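In the hepatic co-culture, the 12 genes called became 21 with DESeq2 and 31 with only the 2 groups fitted, all 12 being among them each time, and 1 to 32 with each library left out (4660 to 5279 of all genes were called over the other settings, and 3660 to 5529 with a library left out). Without a low-count filter 12 were called, of which 5 were among the original 12. In the cardiac co-culture the 0 became 6 with DESeq2, 11 without a low-count filter and 0 to 35 with a library left out; all genes called, 1443, became 2251, 2219 and 263 to 3378. Between the co-cultures, 0 were called throughout, and 676 to 1269 of all genes with a library left out. With each library left out, the median log2 fold change ran from -0.60 to -0.46 (hepatic), from -0.70 to -0.30 (cardiac) and from -0.14 to 0.25 (cardiac against hepatic), the last reversing to -0.143 without cardiac replicate 4. DESeq2 size factors and upper-quartile scaling kept both counts of called genes at 12 and 0. The estimate of LIG1 reversed, to 0.031 in the hepatic co-culture with upper-quartile scaling, to 0.004, 0.035 and 0.059 without monoculture replicate 4 and hepatic replicates 1 and 3, and to 0.024 and 0.015 in the cardiac one without cardiac replicates 1 and 2; with each library left out it ran from -0.07 to 0.059 and from -0.154 to 0.024. The hepatic median was -0.511 in the main fit, -0.516 without cardiac replicate 4 and -0.505 with only the 2 groups fitted. In these 3 fits the hepatic SE of MCM2 was 0.22, 0.13 and 0.11, and that of E2F1 0.27, 0.12 and 0.13. That of CCNE2 was 0.24 in each. The cause of the shifts in counts and estimates was not tested.

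The titles number the replicates without saying that same-numbered libraries are paired. Deviations of same-numbered libraries correlated at -0.08 to 0.11, and the best correlate in another group had the same number in 6 of 24 cases. A replicate block on these numbers called 19 genes lower in the hepatic, 2 in the cardiac and 0 in the direct comparison. Beside these stand 12.9% and 2.93% of all tested genes lower and 5.1% in either direction. The library names carry other numbers, which match between the monoculture and hepatic groups but differ in the cardiac one. A pairing by library name was not tested. At 26.2 M counts or more per library, the lowest mean count among these genes was 186, for PRIM1.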

Other observations

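Regulators upstream of these genes held calls in both directions. Of 31 tested genes of the E2F, retinoblastoma and cyclin-dependent kinase families, 12 were lower and 3 higher in the hepatic co-culture, beside 13.6% and 14.4% of all tested genes. In the cardiac one 4 were lower and 2 higher, beside 3.33% and 4.93%, or 11 and 3 without cardiac replicate 4, beside 9.16% and 9.9%. CCND1, cyclin D1, had 297 ± 28.5 CPM in monoculture (SD, n = 4) and fell beside hepatic tissue to 161 ± 4.54 and beside cardiac tissue to 202 ± 37.9 CPM, by 0.89 and 0.56 on the log2 scale (edgeR adjusted p = 1.60e-05 and 0.00728). CCND3, cyclin D3, fell from 426 ± 28.7 to 219.6 ± 14.5 CPM in the hepatic co-culture (log2 fold change -0.96 ± 0.07, edgeR adjusted p = 9.04e-08) and stood at 381 ± 27.2 CPM in the cardiac one. The direct comparison placed it 0.79 ± 0.07 higher on the log2 scale in the cardiac co-culture (edgeR adjusted p = 1.10e-06).

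E2F7, a repressor of E2F targets, rose in the hepatic co-culture from 55.0 ± 2.08 to 86.8 ± 7.32 CPM (0.66 ± 0.07 log2, edgeR adjusted p = 4.92e-06) and was lower in the cardiac than in the hepatic co-culture by -0.70 ± 0.07 (edgeR adjusted p = 4.98e-06). CDKN1B, the inhibitor p27, and RBL2, the pocket protein p130, rose in the hepatic co-culture by 0.60 ± 0.10 and 0.49 ± 0.11 on the log2 scale. RBL1, LIN54 and TFDP1 fell there, by 0.64, 0.52 and 0.42. In the cardiac co-culture CDKN1A, the inhibitor p21, rose from 119 ± 9.15 to 149 ± 14.7 CPM (0.32 ± 0.08 log2, edgeR adjusted p = 0.0261). RBL2 rose by 0.36, and MYBL1, E2F3 and TFDP1 fell by 0.64, 0.26 and 0.33. RBL2 and TFDP1 overlapped monoculture through cardiac replicate 4, at 62.2 and 142 CPM. CDKN1A was also higher in the cardiac than in the hepatic co-culture (0.38 ± 0.08 log2, edgeR adjusted p = 0.00878). There cardiac replicate 4 (129.2 CPM) overlapped hepatic replicate 1 (129.8 CPM).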
